A study of Rattus norvegicus with 8 samples.

Results

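Matrix metalloproteases and their tissue inhibitors were followed in the cortex of rats after a stroke. The members were every probe of the deposited table that carried the symbol Mmp2, Mmp3, Mmp8, Mmp9, Mmp12, Mmp13, Mmp14, Timp1, Timp2 or Timp3. This gave 21 probes of 10 genes among 23609 probes, with 10 probes for the 7 metalloproteases and 11 probes for the 3 inhibitors. All 21 had a value on every array, as did 23376 probes of the whole table.

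The rats were of the Sprague Dawley strain. One group had a transient occlusion of the middle cerebral artery (tMCAO), in which the vessel that feeds the lateral cortex is blocked and then reopened, and the other a sham operation. Tissue was taken at 24 h. Each group held 4 biological replicates, and no transgene or drug was named for either group. A 4 mm section of the ipsilateral brain was dissected, and RNA of the cortex was treated with DNase for 30 min and amplified in 2 rounds from 100 ng. Every two-colour Agilent array compared 1 animal, in Cy5, with pooled RNA of sham cortices, in Cy3, and dyes were not swapped. A log2 ratio of Cy5 over Cy3 of 0 means equal signal of animal and pool. A dye effect on a probe would be shared by both groups, so it cancels in the difference between them. It would not cancel in the ratio itself, and levels given below relative to the pool may include it. The labels do not say how much of the dissected cortex was infarcted.

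Metalloproteases are zinc enzymes that cut collagens, laminins and other proteins of the extracellular matrix. They are made as inactive precursors whose prodomain must be removed, and the TIMPs block the active enzymes by binding their catalytic site. In the ischaemic brain the family is known for breakdown of the basement membrane and tight junctions of the blood-brain barrier, and for matrix repair later on. An array measures RNA and not the active enzyme.

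Replicate 4 of tMCAO stood apart from the other tMCAO arrays, and its values are given throughout. The SD of the log2 ratios over all probes was 0.368 on that array. It ranged from 0.614 to 0.741 for tMCAO replicates 1 to 3 and from 0.23 to 0.258 for sham. Few probes were called between the sham arrays and the pool: 13 of 23376 (0.0556%) by limma at an adjusted p under 0.05, none of them a member. In the same fit 1830 probes had an unadjusted p under 0.05. With the sham arrays alone in the fit the count called was 0. With 4 sham arrays, few calls do not show that sham and pool were equal. The striatal gene Drd2, for example, read log2 ratios of -0.99 to -0.76 on the sham arrays. The tissue label was checked against marker genes. Neuronal markers were present on every array, with a summed Cy5 intensity of 15.8 to 19.7 in sham and 9.66 to 15.95 in tMCAO animals. Choroid plexus markers summed to 0.45 to 0.8 in sham and to between 0.41 and 22.6 in tMCAO animals, the highest on tMCAO replicate 1. On that array the brighter Ttr probe had a log2 ratio of 3.90, while the dimmer Ttr probe, Kl and Folr1 had 0, 0 and 0.44. The dimmer Ttr probe and Kl had mean Cy5 intensities of 0.03 and 0.04, close to the rounding step of 0.01, and could show little. Folr1 and the brighter Ttr probe lay above their highest sham values of 0.22 and 0.49. The part of choroid plexus tissue in the values of that array was not tested. Striatal neuron markers had 0 higher and 4 lower of 5 probes in tMCAO. Their median log2 ratio was -0.58 to -0.42 for sham, below the pool already, and -1.49 to -0.98 for tMCAO, and their summed Cy5 intensity was 5.85 to 7.8 and 3.22 to 5.03. The part of striatal tissue in the member values was not tested. No marker probe was at 0 on every array.

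Of the 21 member probes, 12 were higher and 2 lower in tMCAO cortex at an adjusted p under 0.05, and 7 were not called. Of all probes tested, 29.6% were called, 14.5% higher and 15.1% lower, so the share of members that rose, 57.1%, stood against 14.5%. The median difference of the member probes was 0.78 on the log2 scale, and that of all probes was -0.049. All 4 tMCAO arrays lay above all 4 sham arrays for 12 member probes, against 13.4% of all probes, and below them for 1, against 15.4% of all probes. Without tMCAO replicate 4 the members again gave 12 higher and 2 lower, while the share called over all probes was 21% higher and 23.4% lower. Of the 10 genes, 7 had at least 1 probe that rose, and Mmp8, Mmp13 and Timp3 had none that was called. A gene with more probes meets this rule more easily, and the share of all genes that meet it was not computed. The 7 include Timp2, of whose 6 probes 3 rose and 2 fell. With its probes averaged, Timp2 was not called (limma adjusted p = 0.134). In a piece of tissue, fewer cells of a type and less RNA per cell cannot be told apart.

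**Figure D1:**
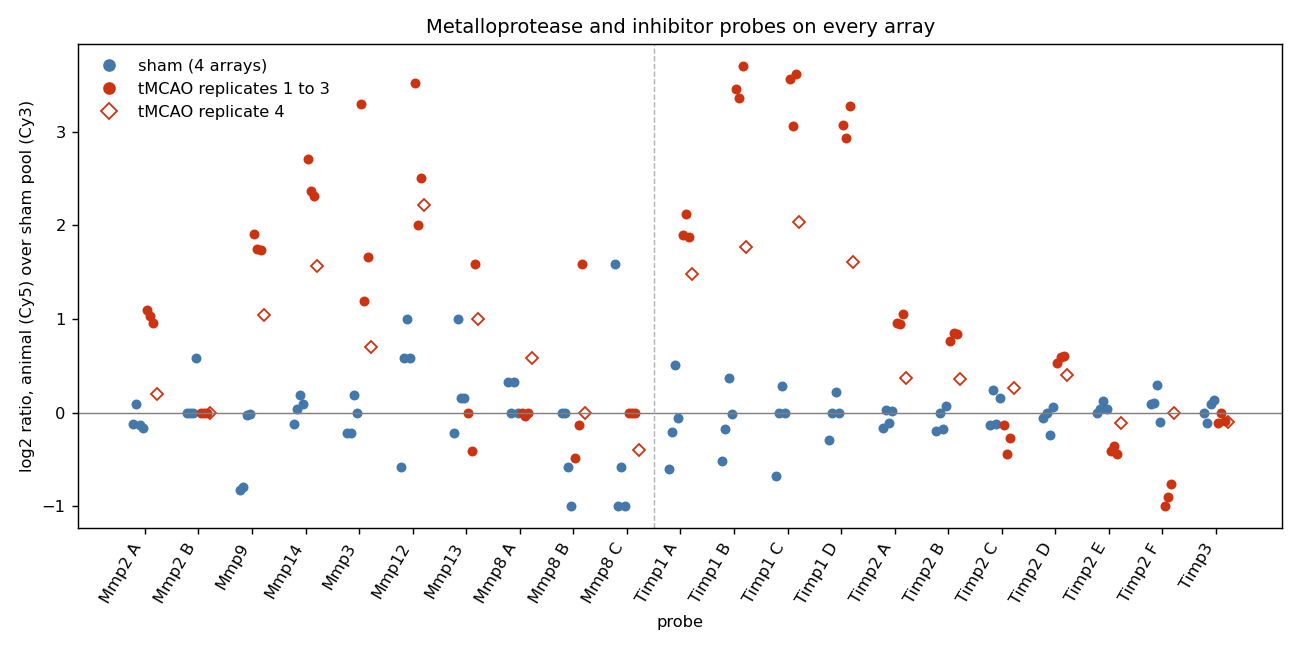
The log2 ratio of the animal over the sham pool is plotted on the y axis for each of the 21 probes, with 1 point per array; letters order the probes of a gene from brightest to dimmest. The sham arrays lie around 0, and the open diamonds of tMCAO replicate 4 are the lowest tMCAO value for 11 of the 12 probes that rose.

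Promoter windows from RefSeq on the GRCr8 assembly were available for 7 of the 10 genes, each with 250 bases before and 50 bases after the annotated start. Mmp2, Mmp9 and Mmp14 had no entry. Mmp13, Mmp12, Mmp3 and Mmp8 lie in this order on chromosome 8, in a stretch of 7 protein-coding genes that starts with Mmp13, ends with Mmp8 and holds metalloproteases alone. These 4 windows are printed because neighbours in the cluster gave different calls in the same animals. Mmp3 and Mmp12 rose, and Mmp13 and Mmp8 were not called. Mmp8 was too dim for a change to be measured, and the Mmp13 difference had a 95% interval from -0.74 to 1.28. The neighbours were not compared with each other in a test, so unequal changes are not shown. Timp1, on chromosome X, is printed as the inhibitor that rose. Capitals mark exact matches to TGANTCA, a consensus binding motif of the AP-1 family, and to TATAAA, the TATA box, searched on both strands.
Mmp13: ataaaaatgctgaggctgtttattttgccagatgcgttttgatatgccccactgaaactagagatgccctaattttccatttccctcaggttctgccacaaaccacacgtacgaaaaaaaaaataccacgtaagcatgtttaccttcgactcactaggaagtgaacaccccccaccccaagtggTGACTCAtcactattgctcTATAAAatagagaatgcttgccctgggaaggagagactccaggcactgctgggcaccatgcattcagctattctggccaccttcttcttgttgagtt
Mmp12: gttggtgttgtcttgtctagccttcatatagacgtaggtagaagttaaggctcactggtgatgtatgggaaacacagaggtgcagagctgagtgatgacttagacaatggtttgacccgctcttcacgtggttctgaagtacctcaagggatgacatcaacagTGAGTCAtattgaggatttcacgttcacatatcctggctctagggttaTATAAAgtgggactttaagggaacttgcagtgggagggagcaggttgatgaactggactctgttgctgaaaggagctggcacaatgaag
Mmp3: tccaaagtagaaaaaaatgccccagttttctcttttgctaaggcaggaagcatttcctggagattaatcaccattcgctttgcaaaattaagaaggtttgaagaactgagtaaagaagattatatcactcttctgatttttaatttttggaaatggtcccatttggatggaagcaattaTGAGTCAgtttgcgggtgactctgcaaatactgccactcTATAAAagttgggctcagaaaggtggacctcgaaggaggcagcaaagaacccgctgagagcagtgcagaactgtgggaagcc
Mmp8: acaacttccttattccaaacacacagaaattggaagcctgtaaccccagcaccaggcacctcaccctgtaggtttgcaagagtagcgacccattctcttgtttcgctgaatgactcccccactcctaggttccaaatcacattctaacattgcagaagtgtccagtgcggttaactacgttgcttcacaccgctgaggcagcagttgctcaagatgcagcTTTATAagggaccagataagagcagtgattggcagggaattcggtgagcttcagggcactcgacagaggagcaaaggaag
Timp1: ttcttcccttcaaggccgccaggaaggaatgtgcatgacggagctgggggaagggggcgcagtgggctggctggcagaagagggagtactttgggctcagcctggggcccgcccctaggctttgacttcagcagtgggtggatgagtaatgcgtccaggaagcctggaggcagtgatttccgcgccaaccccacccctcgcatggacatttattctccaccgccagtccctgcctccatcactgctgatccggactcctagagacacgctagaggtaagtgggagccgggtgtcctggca
The windows are chr8:12782579-12782878 for Mmp13, chr8:12866402-12866701 for Mmp12, chr8:12925031-12925330 for Mmp3 and chr8:13008640-13008939 for Mmp8, all on the plus strand, and chrX:3771073-3771372 on the minus strand for Timp1. TGANTCA was found in Mmp3, starting 71 bases before the annotated start, in Mmp12 at 87 bases before it and in Mmp13 at 66 bases before it. It was in 7.33% of all 33469 windows of this length. No match was found in the windows of Mmp8, Timp1, Timp2 or Timp3. TATAAA was found in the 4 windows of the cluster, in Mmp8 as its reverse complement, and in 14.2% of all windows. The ETS motif AGGAAG was found in Mmp3, Mmp13, Mmp8 and Timp1 and in 34.5% of all windows; it overlapped neither of the other motifs. Sites that differ from these motifs by a letter were not searched, so a window without a match may still hold a variant site. These matches describe letters in the window and say nothing of binding.

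Among the gelatinases, which digest denatured collagen and the type IV collagen of basement membranes, Mmp9 rose 4.07-fold. Its Cy5 intensities in tMCAO replicates 1 to 4 were 2.7, 2.42, 2.61 and 1.65, over pool intensities of 0.72, 0.72, 0.78 and 0.8. In sham replicates 1 to 4 they were 0.39, 0.37, 0.63 and 0.71, over 0.69, 0.64, 0.64 and 0.72. Every tMCAO array lay above every sham array. Sham replicates 1 and 2 lay below the pool and replicates 3 and 4 at its level, so the sham spread was itself wide. The mean log2 ratio was 1.61 ± 0.39 in tMCAO and -0.41 ± 0.45 in sham cortex (SD, n = 4 each). The difference was 2.02 ± 0.26 (SE), with a 95% interval of 2.71- to 6.11-fold and a limma adjusted p of 0.00302. Without tMCAO replicate 4 it was 4.64-fold. By the authors' deposited table, the p-value of the 2 channels was between 8.11e-08 and 6.17e-14 on the tMCAO arrays, and 8.47e-05 and 0.00081 on sham replicates 1 and 2.

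Neutrophils carry a store of this gelatinase, and the neutrophil markers S100a8 and S100a9, which encode the subunits of calprotectin, were set beside Mmp9 on every array. S100a9 read log2 ratios of 3.15, 2.78, 1.91 and -0.81 on tMCAO replicates 1 to 4, and 1.61, -0.76, -0.31 and -0.73 on sham replicates 1 to 4. S100a8 read 2.38, 3.23, 1.93 and -0.74 on the tMCAO arrays and 1.77, -0.74, -0.32 and -0.32 on the sham arrays. On tMCAO replicate 4 both markers lay within or below the sham range while Mmp9 stood at 1.04. On sham replicate 1 both markers were high while Mmp9, at -0.82, was the lowest of all arrays. Neither marker was called, with differences of 1.80 ± 0.89 (adjusted p = 0.154) and 1.60 ± 0.86 (adjusted p = 0.186, limma). Of the 9 neutrophil genes listed, 3 were measured and 0 of their 3 probes were called; the third, the chemokine receptor Cxcr2, was dim. The summed Cy5 intensity of the 3 was 0.33 to 1.73 on the sham and 0.41 to 6 on the tMCAO arrays. How far neutrophils contributed to the Mmp9 signal was not tested.

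**Figure D2:**
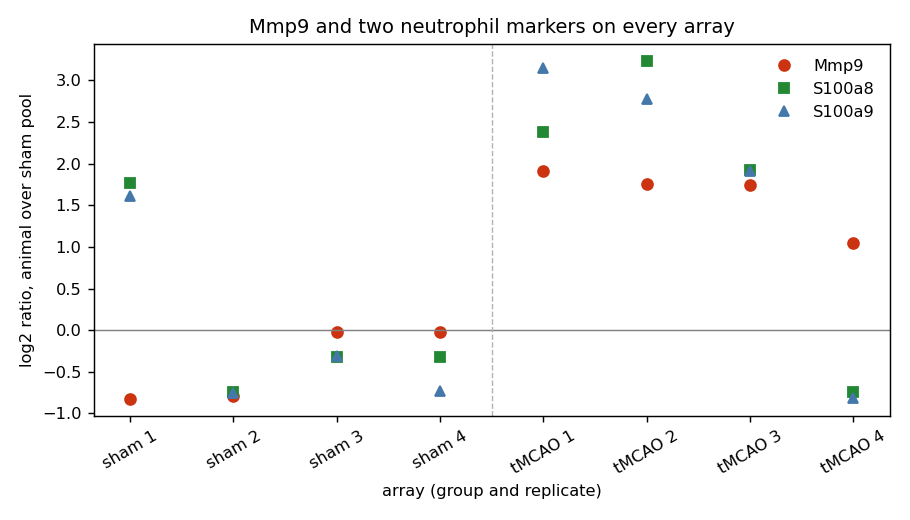
Log2 ratios of the animal over the sham pool (y axis) are shown for Mmp9 and the neutrophil markers S100a8 and S100a9 on each of the 8 arrays (x axis), with 1 point per probe. The markers are high on sham replicate 1 and low on tMCAO replicate 4, while Mmp9 is at -0.82 and 1.04 there.

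Mmp2, the other gelatinase, gave 1 measurable probe. The brighter probe, A, read Cy5 intensities of 0.32, 0.43, 0.35 and 0.23 on tMCAO replicates 1 to 4, over pool values of 0.15, 0.21, 0.18 and 0.2. The sham animals read 0.22, 0.17, 0.2 and 0.17 over 0.24, 0.16, 0.22 and 0.19. Replicates 1 to 3 of tMCAO stood near a log2 ratio of 1, and replicate 4, at 0.20, lay just above the highest sham array at 0.09. The probe rose 1.87-fold, a log2 difference of 0.91 ± 0.19 (SE; 95% interval 1.38- to 2.54-fold; adjusted p = 0.0112). It was 2.16-fold without replicate 4. Probe B read 0.01 to 0.03 in both channels, 1 to 3 steps of the rounding, so that its ratio was 0 on 7 of the 8 arrays. Its difference was -0.15, with an interval from -0.46 to 0.17 (adjusted p = 0.448), and says little about Mmp2. With the 2 probes averaged, Mmp2 rose 1.30-fold (adjusted p = 0.0439).

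Mmp14, the membrane-type metalloprotease that activates the precursor of Mmp2 at the cell surface, rose 4.57-fold. In the sham animals its Cy5 intensities were 0.81, 0.84, 1 and 0.95 and in the tMCAO animals 5.51, 4.79, 4.38 and 2.99, in the order of the replicates. The pool read 0.82 to 1.01 on all 8 arrays, with a difference of 0.07 between the array groups (adjusted p = 0.4), so the change lay in the channel of the animals. The lowest tMCAO value, that of replicate 4, was well above the highest sham value. Mean log2 ratios were 2.24 ± 0.48 and 0.05 ± 0.13 (SD, n = 4 each), and the difference was 2.19 ± 0.22 (SE; 95% interval 3.23- to 6.46-fold; adjusted p = 0.00169). Without replicate 4 the rise was 5.34-fold. Mmp14 rose more than Mmp2 within the arrays: the difference of their log2 ratios was 1.83 ± 0.29 in tMCAO and 0.02 ± 0.16 in sham (SD), a gap of 1.81. In an exact two-sided permutation test over the 70 splits of the arrays, which cannot give a p below 0.0286, the p was 0.0286, and 0.0476 after adjustment over the 5 pairs tested. That gap averages the dim probe of Mmp2 in, and with the brighter probe alone it was 1.29.

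Stromelysin, encoded by Mmp3, cuts proteoglycans and laminin and removes the prodomain of other members. Its Cy5 intensities were 0.06, 0.06, 0.08 and 0.06 in sham replicates 1 to 4 and 0.69, 0.16, 0.19 and 0.13 in tMCAO replicates 1 to 4, over 0.06 to 0.08 in the pool. All tMCAO arrays lay above the sham arrays, but replicate 1 was far above the others, with a log2 ratio of 3.30 against 1.19, 1.66 and 0.70. The estimated rise was 3.43-fold, a log2 difference of 1.78 ± 0.48 (SE; 95% interval 1.60- to 7.36-fold; adjusted p = 0.0263), and the rounding of the intensities alone allows 2.67- to 4.42-fold. The call was lost without any single sham array (adjusted p of 0.0699, 0.0693, 0.0579 and 0.0618 without sham replicates 1 to 4) and without tMCAO replicate 3 (0.0629). Leaving out tMCAO replicate 1 lowered the log2 difference to 1.25 (adjusted p = 0.014), and leaving out replicate 4 raised it to 2.12.

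Mmp12, the elastase of macrophages, rose 4.49-fold from a signal close to the rounding step. The sham animals read 0.02, 0.03, 0.04 and 0.03 and the tMCAO animals 0.23, 0.08, 0.17 and 0.14, over 0.02 to 0.03 in the pool. Every tMCAO value exceeded every sham value. The log2 difference was 2.17 ± 0.41 (SE; adjusted p = 0.00768), with a 95% interval of 2.36- to 8.52-fold. Rounding alone allows 2.34- to 8.80-fold, so its size is not well fixed. After quantile normalization the difference was 1.07 and no longer called (adjusted p = 0.198). It was 4.85-fold without tMCAO replicate 4.

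The collagenases, which cleave the triple helix of fibrillar collagens, did not pass the test. Mmp13 read 0.06, 0.12, 0.1 and 0.1 in the sham animals and 0.05, 0.03, 0.21 and 0.14 in the tMCAO animals. Replicates 1 and 2 of tMCAO lay at or below the pool, with log2 ratios of 0 and -0.42, and replicates 3 and 4 above it, at 1.58 and 1, a value that sham replicate 2 also reached. The groups overlapped, and the difference of 0.27 ± 0.44 had an interval from -0.74 to 1.28 (adjusted p = 0.665). Its 1 probe was named by the table alone, since its transcript identifier was not in the RefSeq list. Mmp8, the collagenase of neutrophil granules, had 3 probes that read at most 0.05 in either channel on every array. Their differences were -0.02, 0.64 and 0.15, with 95% intervals that together run from -1.05 to 1.64 and adjusted p-values of 0.924, 0.295 and 0.851. A change of Mmp8 was not measurable at this signal. Over all members, 11 of the 16 probes with a mean Cy5 intensity of at least 0.1 rose, against 1 of the 5 dimmer probes, that of Mmp12. That mean includes the tMCAO arrays, so a rise can itself lift a probe above the cut. Mmp3 averaged 0.065 in the sham and 0.29 in the tMCAO animals. The split is therefore no test of whether brightness goes with a rise. With only the probes above this cut fitted, 3279 of 16772 in the whole table were higher.

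**Figure D3:**
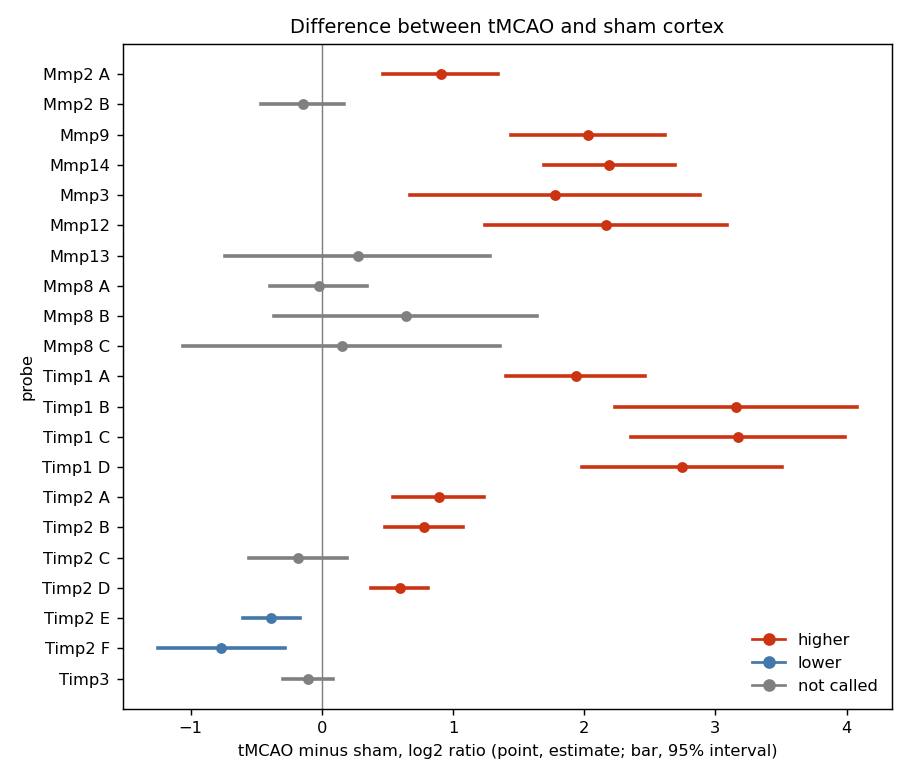
The difference between tMCAO and sham cortex in log2 ratio (x axis) is drawn for each probe with its 95% interval, coloured by call at an adjusted p under 0.05. All 4 Timp1 probes lie between 1.93 and 3.17, while the 6 Timp2 probes lie on both sides of 0.

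Timp1, the inducible inhibitor that binds pro-Mmp9 and many active members, rose on each of its 4 probes, by 3.82- to 9.01-fold. Probe B read Cy5 intensities of 0.55, 0.87, 1.32 and 0.89 in sham replicates 1 to 4 and 8.47, 8.84, 12.13 and 2.86 in tMCAO replicates 1 to 4. Pool intensities for it ran from 0.77 to 1.02 over all arrays. Replicates 1 to 3 of tMCAO formed a tight group, replicate 4 lay between them and the sham arrays, and the groups did not overlap on any probe. Probe B rose 8.93-fold, a log2 difference of 3.16 ± 0.41 (SE; 95% interval 4.70- to 16.9-fold; adjusted p = 0.0031), and 12.1-fold without replicate 4. Probes C and D rose 9.01-fold (3.17 ± 0.36, adjusted p = 0.00207) and 6.69-fold (2.74 ± 0.33, adjusted p = 0.00268). Their pool intensities were also higher on arrays of tMCAO animals, by 0.48 and 0.67 on the log2 scale (limma adjusted p = 0.00343 and 0.00209), although the labels give the same pool for every array. Over all probes 26.5% of pool signals were higher and 10.2% lower on the tMCAO arrays. Dividing by the pool thus lowered the rise of these probes, and with the Cy5 signal alone the differences were 3.63 for probe C and 3.39 for probe D.

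Probe A of Timp1 was the brightest of the 4 and gave the smallest fold. A pile of equal top intensities, a ceiling, was seen in 11 of the 16 array channels, the lowest at 19.2, and probe A was at the ceiling of its own channel on 3 of the 4 tMCAO arrays. It read 22.4, 28.18 and 25.26 on tMCAO replicates 1 to 3 and 18.93 on replicate 4, which had no pile. The sham animals read 3.68, 5.45, 7.52 and 5.66. Its 3.82-fold rise (1.93 ± 0.23, adjusted p = 0.00253) is therefore a value in which 3 of 4 tMCAO readings were at the ceiling. Without tMCAO replicate 4 it was 4.16-fold, while probe C was 11.5-fold and probe D 8.66-fold. The sham animals also differed among themselves in one order on the 4 probes. Replicate 1 was lowest and replicate 3 highest on 4 of 4 probes, with log2 ratios of -0.60 and 0.51 on probe A. Of the 4 probes, 3 share a source sequence, so this order is not 4 independent readings.

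**Figure D4:**
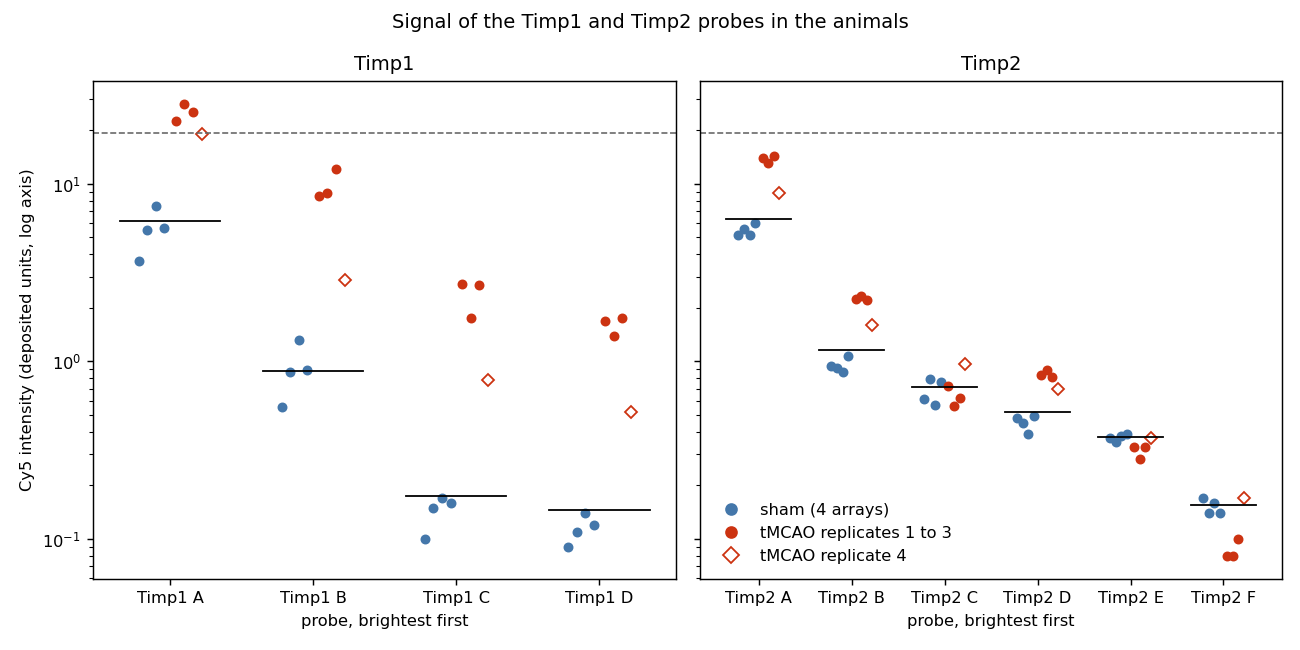
Cy5 intensities of the animals are shown on a log axis for the probes of Timp1 (left) and Timp2 (right), 1 point per array; black bars give the median pool intensity and the dashed line the lowest ceiling pile at 19.2. On Timp1 A the tMCAO replicates 1 to 3 lie above the line, and on Timp2 probes A, B and D every tMCAO point lies above every sham point, while the groups overlap on C, E and F.

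Timp2, the inhibitor that also helps Mmp14 to activate pro-Mmp2, did not give one answer. Its 6 probes split into 3 that rose, 2 that fell and 1 that was not called, and they split by the sequence they were designed on. The 3 probes of U14526, A, B and D, rose 1.85-, 1.71- and 1.51-fold, with log2 differences of 0.89 ± 0.15, 0.78 ± 0.13 and 0.59 ± 0.09 (SE; adjusted p = 0.00583, 0.0054 and 0.00479). Probe A read 5.14, 5.52, 5.14 and 6.02 in sham and 13.91, 12.99, 14.21 and 8.8 in tMCAO replicates 1 to 4. Its pool readings were 5.41 to 5.95 on the sham and 6.73 to 7.15 on the tMCAO arrays. The groups did not overlap on A, B or D, and none of the readings was at the ceiling. Pool signals of the 3 probes were higher on the tMCAO arrays by 0.25 to 0.35 (log2), so part of the rise in the animals' channel was divided out. Without tMCAO replicate 4 the folds were 2.06, 1.86 and 1.55.

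The other 3 Timp2 probes pointed down or nowhere. Probe F read 0.17, 0.14, 0.16 and 0.14 in sham and 0.08, 0.08, 0.1 and 0.17 in tMCAO replicates 1 to 4. Replicates 1 to 3 were below every sham array, and replicate 4 was at the pool. Probe F fell by 0.77 on the log2 scale (SE 0.21, adjusted p = 0.0284), which is 1.70-fold lower. Probe E read 0.37, 0.35, 0.38 and 0.39 in sham and 0.33, 0.28, 0.33 and 0.37 in tMCAO animals. It fell by 0.38 (SE 0.09, adjusted p = 0.0183), 1.30-fold, and all its tMCAO log2 ratios lay below the sham values. These falls were less firm than the rises. The call of E was lost without sham replicate 3 (adjusted p = 0.0539) or tMCAO replicate 3 (0.054), and that of F without sham replicates 1, 2 or 3 or tMCAO replicates 1, 2 or 3 (0.067 to 0.0808). Both were lost after quantile normalization (0.0598 and 0.0663), with the Cy5 signal alone (0.183 and 0.076) and with the replicate number as a block (0.056 and 0.066). Probes E and F fell by 0.46 and 0.99 without tMCAO replicate 4. Their pool signals were also higher on the tMCAO arrays, by 0.19 each (log2, limma adjusted p = 0.0926 and 0.104). Division by the pool thus added to these falls, and with the Cy5 signal alone the differences were -0.21 and -0.59. Probe C had a difference of -0.18, with an interval from -0.55 to 0.19 (adjusted p = 0.419). Its pool signal was higher on the tMCAO arrays by 0.24 (limma adjusted p = 0.00689).

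All 6 Timp2 probes carry the symbol in the table alone, since their source sequences are not in the RefSeq list, and the same holds for the 4 Timp1 probes. Which Timp2 transcripts the probes detect was not tested. With the 6 averaged, the difference was 0.15 and not called (adjusted p = 0.134), a value that hides probes moving both ways. No direction is therefore given for Timp2 as a gene.

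Timp3, the inhibitor that stays bound to the matrix, showed no called difference. Its probe read 0.15, 0.13, 0.16 and 0.11 in sham and 0.12, 0.13, 0.16 and 0.14 in tMCAO replicates 1 to 4, over 0.1 to 0.17 in the pool. The groups overlapped, and the difference was -0.11 ± 0.08 (SE; adjusted p = 0.357). Its 95% interval ran from -0.30 to 0.08.

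The inhibitors changed unequally within the same arrays. The log2 ratio of Timp1 minus that of Timp2, each averaged over its probes, was 2.88, 2.76, 2.95 and 1.51 on tMCAO replicates 1 to 4 and -0.45, -0.16, 0.38 and -0.06 on sham replicates 1 to 4. The gap between the groups was 2.60 (exact two-sided permutation p = 0.0286, adjusted p = 0.0476), and that of Timp1 minus Timp3 was 2.86 (adjusted p = 0.0476). Both averages include the Timp1 probe at the ceiling, and that of Timp2 mixes probes that moved both ways. With the brightest probe of each gene the gaps were 1.04 and 2.04 (exact permutation, adjusted p = 0.0357 for each), and as that Timp1 probe is the one at the ceiling they are lower bounds. Timp2 minus Timp3 gave 0.26 (exact permutation, adjusted p = 0.0571). Mmp9 minus Timp1 gave -0.73 on the averaged probes (exact permutation, adjusted p = 0.0571), and -0.999 (adjusted p = 0.0357) without the ceiling probe, an alternative chosen after seeing the data. Against the ceiling probe alone no size or direction of this gap can be given.

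Other genes with the most similar pattern over the 8 arrays were found by the root mean square distance of log2 ratios among 8600 symbols. Each symbol was averaged over its probes. Mmp14 lay closest to Pdpn, which encodes the membrane glycoprotein podoplanin, and to the vault protein gene Mvp, at distances of 0.13 and 0.13. Timp1 lay closest to the lysosomal protease gene Ctsc (0.26) and the actin-capping gene Capg (0.27). Mmp9 lay closest to Cep152 and Fkbp10, at 0.29 and 0.34, Mmp3 to the chemokine receptor Ccr1 and Prss23, at 0.40 and 0.41, and Mmp12 to Myo1g and the class II invariant chain Cd74, at 0.47 and 0.52. Mmp2, Timp2 and Timp3 had near neighbours at 0.06, 0.04 and 0.02, as their averaged ratios lay closer to 0, where many genes lie. For Mmp2 the average, with a difference of 0.38, mixes the rise of probe A with the dim probe B. For Timp2 it mixes probes that moved both ways. These distances hold for the averages and not for single probes.

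Genes around the pathway were taken from lists and are described by counts of probes, beside the 14.5% higher and 15.1% lower of all probes. Of 11 probes of other metalloprotease genes, 1 was higher and 3 lower, with a median difference of -0.06. Mmp17, a glycosylphosphatidylinositol-anchored member, fell by 1.41 (SE 0.22, adjusted p = 0.00442) on its brighter probe, and Mmp15, another membrane-type member, fell by 0.69 and 0.37 on 2 of its 3 probes. Mmp7 was called higher by 1.20, but it read near the rounding step, which alone allows 0.90- to 6.45-fold. Membrane-anchored members thus moved both ways, Mmp14 up and Mmp15 and Mmp17 down, while Mmp16 (-0.17) and Mmp24 (-0.58) were not called. Mmp16 and Mmp24 are named here after their values were seen.

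Of 13 probes of other inhibitors, activators and partners, 6 were higher and 2 lower, with a median of 0.47. Cd44, a receptor that can hold Mmp9 at the cell surface, rose 8.96-fold (3.16 ± 0.32). A2m, a broad protease trap, rose 5.23-fold (2.39 ± 0.26), and Lcn2, whose product forms a complex with Mmp9, rose 4.40-fold (2.14 ± 0.30), highest on tMCAO replicate 4. Bsg, an inducer of metalloproteases, fell by 0.49 (SE 0.13) and the scavenger receptor gene Lrp1 by 0.35 (SE 0.10) on 1 of 2 probes.

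Substrates of the enzymes mostly rose at the RNA level. Of 30 probes of matrix and basement membrane genes, 17 were higher and 3 lower, with a median of 0.49. Vcan, a proteoglycan of the matrix (1.87 ± 0.35), Col4a1 of the basement membrane (1.82 ± 0.43), the laminin chain Lama5 (1.68 ± 0.38) and fibronectin, Fn1 (1.64 ± 0.28, at the ceiling on 1 array), rose, and the brain proteoglycan gene Bcan fell by 1.70 (SE 0.30) and the basement membrane gene Nid1 by 0.52 (SE 0.09). The median log2 ratio of the list was 0.57 to 0.87 on tMCAO replicates 1 to 3 and 0 on replicate 4. Of 4 tight junction probes, 3 were higher and 0 lower, with F11r 2.83-fold and Tjp1 1.62-fold higher. These encode junction proteins of epithelium and endothelium. F11r read a log2 ratio of 0.02 on tMCAO replicate 4, below the sham range of 0.07 to 0.24. The claudin gene Cldn5 was not analysed here.

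**Figure D5:**
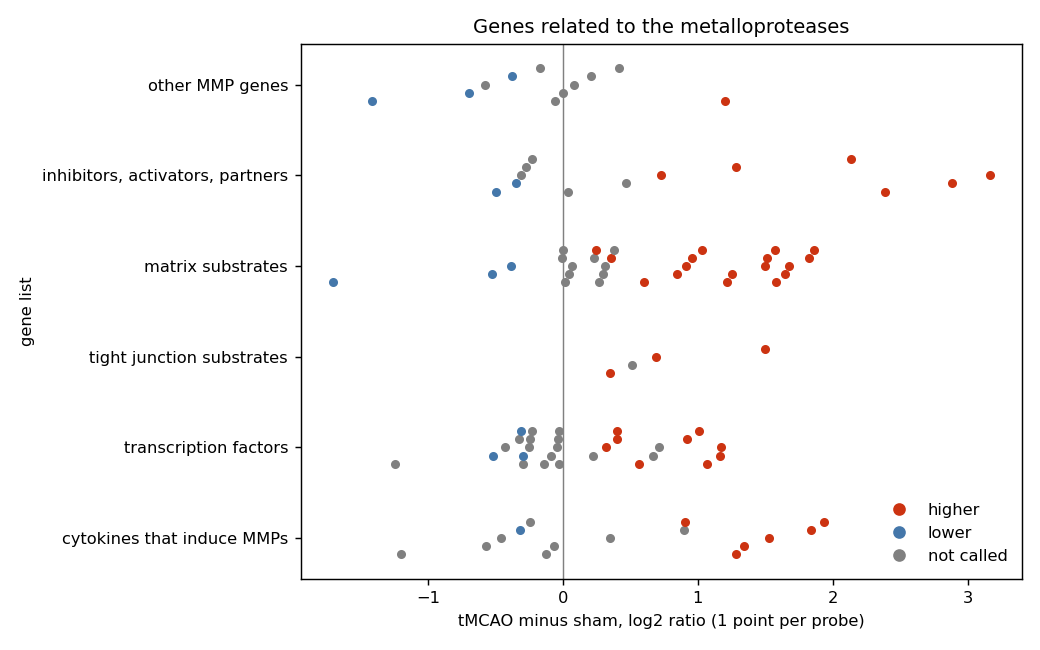
Differences between tMCAO and sham cortex in log2 ratio (x axis) are plotted with 1 point per probe for 6 lists of related genes, coloured by call at an adjusted p under 0.05. Matrix substrates have 17 of 30 probes higher, and other metalloprotease genes 1 of 11.

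Regulators were mixed. Of 28 probes of transcription factors known to act on metalloprotease promoters, 9 were higher and 3 lower, with a median of -0.03. Ets1 rose on its 3 probes (1.07, 1.17 and 1.18) and Stat3 on its brightest (1.01). Fosl2, of the AP-1 family, fell by 0.51 on a dim probe with a mean Cy5 intensity of 0.10. Of the same family, no probe of Fos, Fosl1, Junb or Jund was called. Jun, another AP-1 gene, gave no single direction: its brightest probe rose by 0.40 (adjusted p = 0.0152), a dim probe near an intensity of 0.1 fell by 0.31 (adjusted p = 0.0454), and its other 2 probes were not called. Of 15 probes of cytokines that induce metalloproteases, 6 were higher and 1 lower, with a median of 0.35. Il1b rose by 1.94 ± 0.45 and Il6 by 1.84 ± 0.54 on their strongest probes. On tMCAO replicate 4 they read 0.95 and 0.62, near or inside the sham ranges of up to 0.84 and 1.09. Il1a fell by 0.32 on 1 of 3 probes. On tMCAO replicate 4 the member probes that rose were spread widely. Mmp14, Mmp9 and the 4 Timp1 probes stood between 1.04 and 2.04, and Mmp12 at 2.22. Mmp3 stood at 0.70, Mmp2 probe A at 0.20, and Timp2 probes A, B and D at 0.37, 0.36 and 0.40. A link between the cytokines and the members was not tested.

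Markers of cell types that make these proteases moved as well. Monocyte and macrophage markers had 4 higher and 0 lower of 9 probes, with Lyz2 at 2.18 ± 0.34 and Arg1 at 1.99 ± 0.40, and their summed Cy5 intensity was 4.41 to 4.9 on the sham and 10.3 to 30.1 on the tMCAO arrays. Microglial markers had 5 higher of 9 (Cx3cr1 1.28, Aif1 0.95), with sums of 21.8 to 23.1 and 27.9 to 44.2. Endothelial markers had 5 higher of 14 (Tek 2.43, Kdr 1.79), with sums of 7.25 to 7.98 and 12 to 35. Pericyte and smooth muscle markers had 5 higher and 2 lower of 10 (Tagln 2.30, Rgs5 -1.16), with sums of 3.7 to 4.23 and 7.25 to 14.4. Meningeal fibroblast markers had 7 higher of 9 (Col6a3 2.07, Dcn 2.05), with sums of 5.52 to 6.54 and 5.57 to 14. Astrocyte markers had 2 higher and 4 lower of 7 (Vim 1.96, Aqp4 -1.63 on its dimmer probe and 0.10, not called, on its brighter one), with sums of 45.2 to 57.2 and 59.3 to 72.4, and neuronal markers had 0 higher and 3 lower of 4 (Syp -1.34). The probes of Lyz2, Vim and Kdr named here were at the ceiling on 3, 3 and 2 arrays, so their differences are not exact. The part of any of these cell types in the member values was not tested.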

How the data were processed

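Two-colour arrays of 4 tMCAO and 4 sham cortices were used. The authors deposited a normalized intensity of each channel and a p-value of the 2 channels per array, made with Agilent Feature Extraction 8.5.1.1 per the submitters' processing notes. The scaling and the error model are not given in the sources used here. Intensity values carry 2 decimals, and 27.9% of Cy5 values lie below 0.1, where rounding makes ratios coarse. The deposited log10 ratio of the series matrix equals that of the intensities within 0.005 and served as an alternative.

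From the intensities log2(Cy5/Cy3) was computed, and all 23376 probes with complete values were fitted with limma 3.58.1 in R 4.3.3 (two-sided, a mean per group, Benjamini-Hochberg adjustment over all probes, called at an adjusted p under 0.05). The fit was tested on simulated data. The 5 pairs of members were compared by exact permutation over 70 splits. Ceiling piles were the lowest window of 0.1 intensity units from 15 upwards holding at least 15 probes. Ranges within rounding move each intensity by its rounding error. The number of arrays limits the precision.

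The members, gene lists and tests were chosen with earlier results of these data known. All 10 members are named. From other lists up to 4 called probes by size and up to 2 against the majority are named, or up to 2 by signal where none was called; for similar genes, the 2 nearest symbols with a mean Cy5 of at least 0.1. Not every gene allowed is named, and some are not reported here. Replicate numbers did not pair the groups (correlation of same-numbered arrays -0.0614 to 0.0297). Alternatives were other scalings, single channels, an offset of 0.05, a filter on dim probes, other variance models, ceiling and missing-value rules, symbol averages, a replicate block and leaving out each array.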

Additional observations from a re-analysis of the deposited data

Results flagged for a closer look

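Among 52 groups of 4 arrays tested with Dixon's criterion, of which chance picks about 1 in 20, 8 held an array far from the other 3. For Mmp2 probe A, tMCAO replicate 4 read a log2 ratio of 0.202 against 0.959 to 1.09 on the other tMCAO arrays. On the same probe sham replicate 2 read 0.0875 against -0.16 to -0.126. For Timp2 probe A, tMCAO replicate 4 read 0.366 against 0.949 to 1.05. For Timp1 minus Timp2 it read 1.51 against 2.76 to 2.95. The remaining 4 were probes near the rounding step: Mmp2 probe B on sham replicate 4 (0.585, others 0), Mmp8 probe A on tMCAO replicate 4 (0.585, others -0.038 to 0), and Mmp8 probe C on sham replicate 1 (1.58, others -1 to -0.585) and tMCAO replicate 4 (-0.4, others 0). Of the 8, 5 concern tMCAO replicate 4.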

How the results depend on the processing

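The count of all probes called, 6920, was 3583 after quantile normalization, 11186 with the pool alone as the control, 11199 with array weights (0.196 for tMCAO replicate 4), 2409 at an adjusted p under 0.01, and 4255 to 10392 with an array left out, highest without tMCAO replicate 4 and lowest without sham replicate 3. Of the members, 14 probes were called. The count was 10 to 15 under the probe-level alternatives, and 6 of 10 genes with probes of a symbol averaged. Probes that differed between sham and pool numbered 13, and 0 with the sham arrays alone. The replicate numbers did not pair the arrays, and the replicate block called 4936 probes and 12 member probes, losing Timp2 probes E and F.

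Timp2 minus Timp3, 0.26, passed the threshold with the brightest probes (1.00), an offset (0.27) or without sham replicate 2, and ran from 0.23 to 0.33 with an array left out. It was 0.86 with the U14526 probes alone, which are the 3 that rose and were chosen after seeing that, so this value is no test. Mmp9 minus Timp1, -0.73, was at most 0.091 with the brightest probes, where Timp1 is at the ceiling and the direction is not settled, -0.999 without the ceiling probe and -0.86 to -0.61 with an array left out, passing without tMCAO replicate 4. For single probes, 378 of 414 alternative values kept direction and side, 20 lost the call, 2 gained it (Mmp8 probe B 1.31 with array weights, Mmp8 probe C 0.76 without sham replicate 1) and 14 turned, all on probes that were not called. With the Cy5 signal alone, Mmp13 was -0.19, Mmp8 probes B and C -0.73 and -0.26, and Timp2 probe C 0.043. Against the pool alone, Mmp8 probes A and C were 0.14 and -0.10. With an array left out, Mmp8 probe A ran from -0.17 to 0.034, Mmp8 probe C from -0.10 to 0.76 and Mmp13 from -0.075 to 0.59. The causes were not tested. Signals under 0.1 limit what can be said of Mmp8, Mmp12 and Mmp2 probe B.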
